A study of Mus musculus with 12 samples.

Results

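The transcriptome of the corpus callosum of wild-type (WT) mice given cuprizone was compared with that of untreated WT controls, 3 libraries against 3. These are 6 of the 12 libraries of a mouse RNA-seq series on cuprizone demyelination, in which the other 6 come from AHR CKO mice, which lack the aryl hydrocarbon receptor in microglia, with and without cuprizone. Both groups described here are labelled WT and carry no named allele, so the only labelled difference between them is the treatment. The labels number the libraries 1 to 3 in each group and do not state whether these are separate animals. The p-values therefore measure a spread between libraries, which may be technical. This spread was estimated within the groups of all 12 libraries, AHR CKO included. Neither the dose and duration of cuprizone nor the age and sex of the mice are stated there. Each value is an FPKM, a fragment count scaled to transcript length and library size, and the comparison covered the 13363 of 15584 genes that reached 1 FPKM in at least 3 of the 6 WT libraries.

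The corpus callosum is a white matter tract in which oligodendrocytes wrap axons with myelin, a lipid-rich membrane whose proteins and cholesterol these cells make in large amounts. Cuprizone is a copper chelator which, fed to mice, leads to the death of mature oligodendrocytes and to demyelination of this tract, together with an accumulation of microglia, which are macrophages that reside in the brain, and a reaction of astrocytes. Precursor cells in the tract can divide and mature into new oligodendrocytes. In RNA from whole tissue, fewer cells of a type and less RNA per cell cannot be told apart.

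Library totals were alike, from 447156 to 472073 FPKM, and correlations across genes were 0.972 to 0.992 within a group and 0.932 to 0.962 between the groups. The first principal component, with 66.63% of the variance, separated the groups without overlap. The next, with 16.10%, set control 3 (-20.8) against cuprizone 2 (22.4), and only cuprizone 2 had genes listed at 0 FPKM (94 genes). Markers of 2 neighbouring tissues varied between libraries within a group. Striatal neuron markers summed to 822, 1248 and 3361 FPKM in controls 1 to 3 and to 784, 587 and 1149 FPKM in cuprizone 1 to 3, highest in control 3. The 17 choroid plexus markers in the table summed to 209.9, 375 and 228 FPKM in the controls and to 3316, 105.3 and 1126 FPKM after cuprizone, highest in cuprizone 1. None of the 13 striatal and none of the 9 choroid plexus genes tested was called in either direction. The striatal log2 changes all lay below 0, from -1.04 to -0.46 (median -0.89). Those of the choroid plexus genes ran from -0.53 to 2.76 (median 1.01). The sums of both lists overlapped between the groups, although their median changes lay away from 0. The part of these tissues in the results below was not tested.

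After cuprizone 1230 genes were higher (9.2% of those tested) and 1071 lower (8.01%), together 17.2%, at an adjusted p of 0.05 in limma. The 2 groups did not overlap for 4677 genes (35% of those tested), of which 2110 were higher (15.8%) and 2567 lower (19.2%). Large increases outnumbered large decreases: 458 genes rose and 222 fell at least 2-fold on the log2(FPKM + 1) scale (3.43% and 1.66%), 103 and 35 at least 4-fold, and 23 and 5 at least 8-fold. The genes that rose were mostly of low abundance, with a median of group means that went from 4.66 to 10.9 FPKM. Those that fell had a median of 24.3 FPKM in controls and 14.7 FPKM after cuprizone. Summed over the genes, the 1230 rose from 33298 to 67706 FPKM and the 1071 fell from 71579 to 36924 FPKM. The median log2 change of all tested genes was -0.04.

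Genes were read by role in 74 lists, of which 1533 members were tested. A member that reached 1 FPKM in the cuprizone libraries alone had to differ to be tested at all. This held for 141 genes in the table, 129 of them called higher. Among these were 8 of the 26 toll-like receptor and inflammasome genes tested, 8 of the 41 interferon effectors, 4 of the 24 reactive astrocyte genes and 3 of the 7 paired immune receptors. Short lists held such genes too: 2 of the 3 Ms4a genes, 1 of the 4 C-type lectins, 1 of the 6 Fc receptor genes and 2 of the 10 class II genes. Counts of list members called are therefore descriptions, to be read against the 9.2% and 8.01% of all tested genes that were called higher and lower. The same holds for the p-value of any gene below whose controls were all under 1 FPKM and whose cuprizone libraries all reached it.

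**Figure D1:**
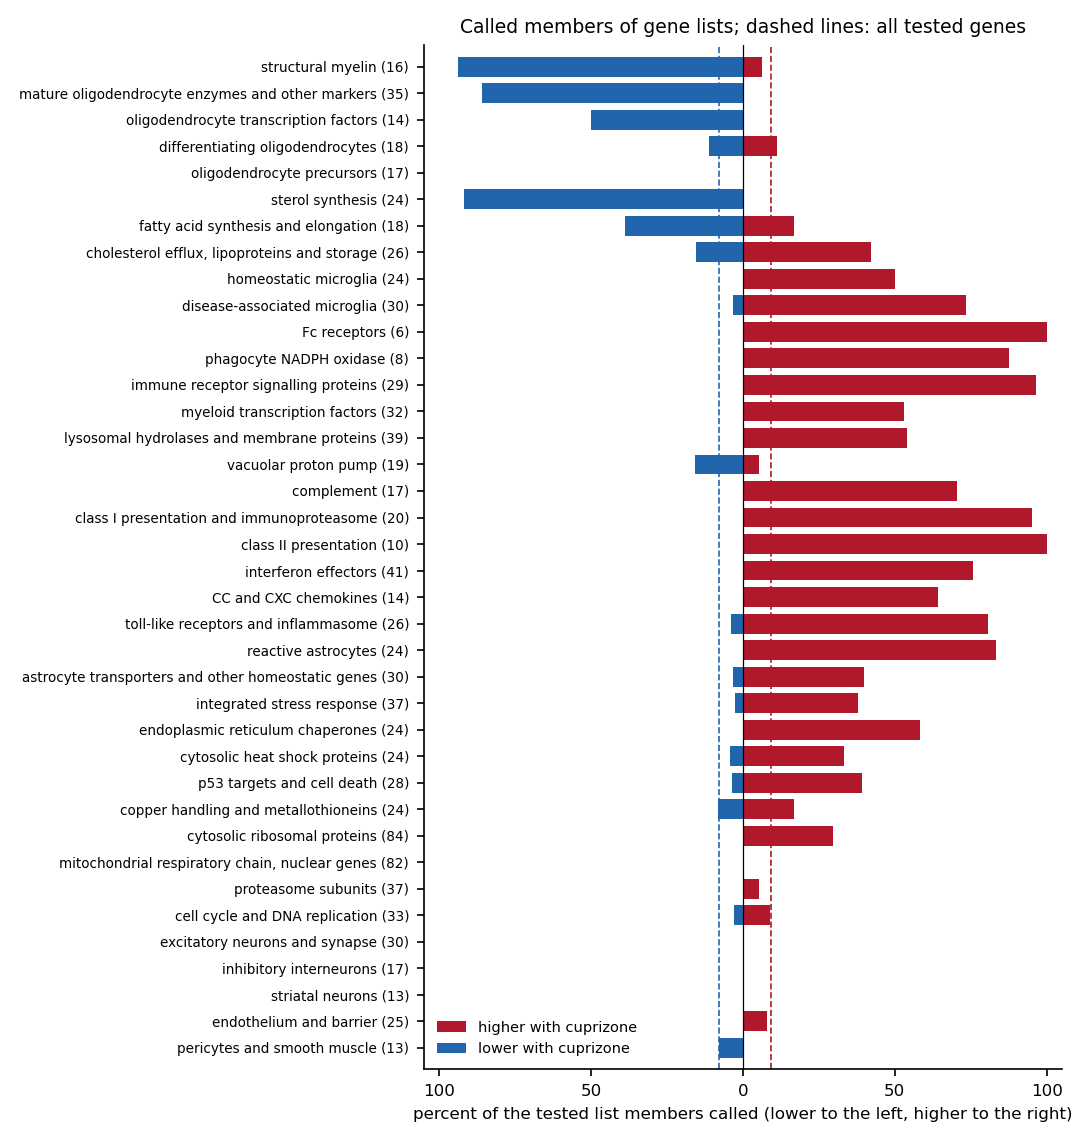
Percent of the tested members of 38 gene lists called higher (right) or lower (left) after cuprizone, with the number tested beside each list. Dashed lines mark the 9.2% and 8.01% of all tested genes called higher and lower. Structural myelin and sterol synthesis stand out to the left, and class II presentation and Fc receptors to the right.

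Of the 16 structural myelin genes, 15 fell and 1, Cd9, rose, with a median log2 change of -1.91 against -0.04 for all genes. Mog, a protein of the outermost myelin surface, measured 186, 232 and 121 FPKM in the control libraries and 28.2, 28.6 and 42.7 FPKM in the cuprizone libraries (log2 change -2.38 ± 0.21, adjusted p = 1.3e-05). Values after ± are standard errors here and below. Mobp, a basic protein of the compact sheath, measured 589, 843 and 455 FPKM in controls and 129, 154 and 184 FPKM after cuprizone (log2 change -1.98 ± 0.19, adjusted p = 1.9e-05). In both genes every cuprizone library lay below every control library, and control 2 was the highest and control 3 the lowest control. Mbp, the basic protein that holds the membrane layers together, was the largest decrease in FPKM among these, from a mean of 8545 to 2293 FPKM (log2 change -1.86 ± 0.21, adjusted p = 6.2e-05). Cldn11, which forms the tight junctions of the sheath, fell 4.96-fold (log2 change -2.28 ± 0.26, adjusted p = 6.4e-05).

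The summed level of the 16 genes was 16053, 19902 and 11243 FPKM in controls 1 to 3 and 4025, 4346 and 4683 FPKM in cuprizone 1 to 3. The cuprizone libraries spanned a narrower range than the controls. Control 3, lowest in 14 of the 15 genes that fell, was also the library with the highest striatal sum, and control 2 was highest in 14. The exception to the fall, Cd9, a tetraspanin of myelin that microglia also express, measured 137, 178 and 100.5 FPKM in the control libraries and 291, 200.3 and 209 FPKM in the cuprizone libraries (log2 change 0.77 ± 0.21, adjusted p = 0.024), and its call was lost when control 1, control 3 or cuprizone 1 was left out (adjusted p up to 0.10) or under 1 other setting.

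**Figure D2:**
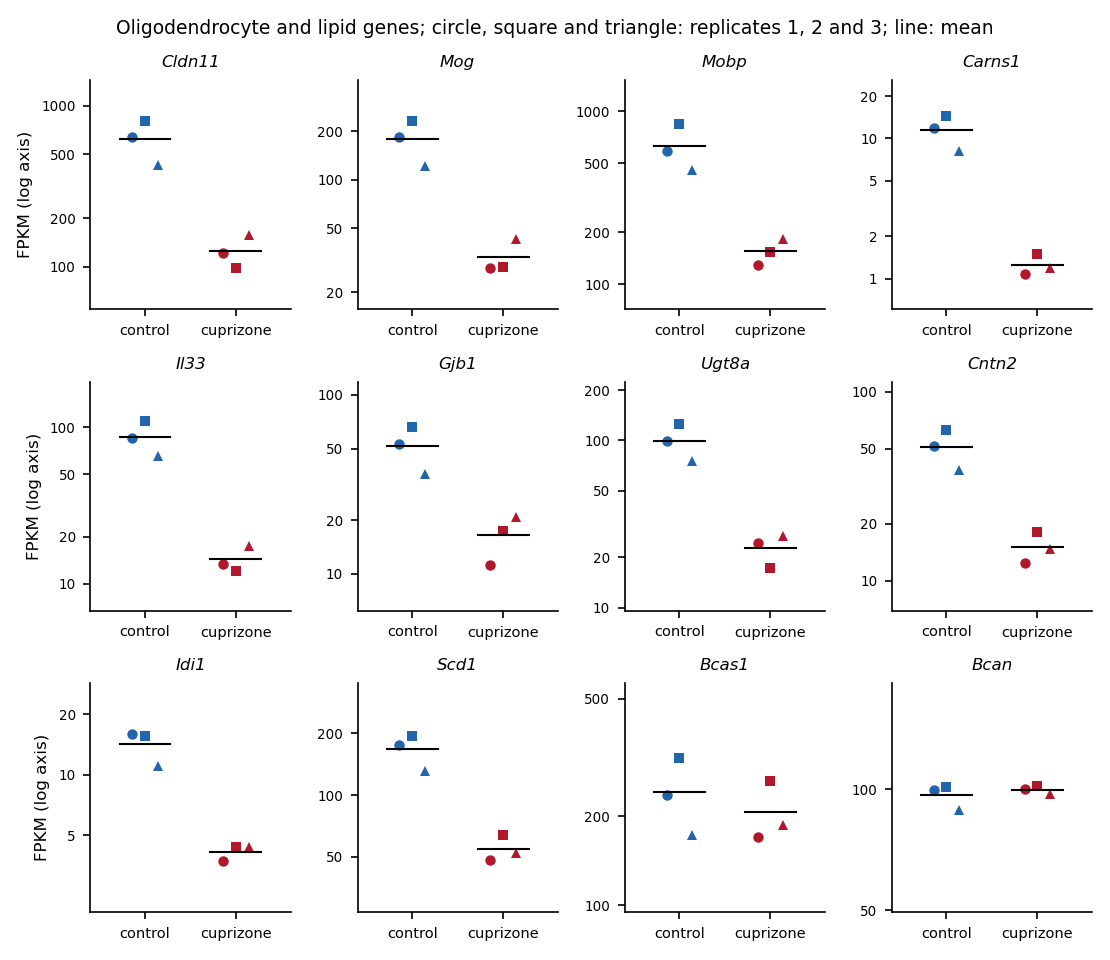
FPKM on a log axis of 12 genes of oligodendrocytes and lipid synthesis in each WT library. Circles, squares and triangles are replicates 1, 2 and 3, and lines are group means. Cldn11, Mog, Mobp, Carns1, Il33, Gjb1, Ugt8a, Cntn2, Idi1 and Scd1 separate the groups, whereas Bcas1 and Bcan overlap.

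Of 24 enzymes that build and break galactolipids and sphingolipids, the main polar lipids of myelin, 8 fell and 1 rose. Ugt8a, which makes galactosylceramide, measured 99.1, 125 and 75.3 FPKM in the control libraries and 24.2, 17.2 and 26.7 FPKM in the cuprizone libraries (log2 change -2.08 ± 0.23, adjusted p = 5.5e-05). Cers2, the ceramide synthase for very long acyl chains, measured 103, 135 and 75.4 FPKM in controls and 42.5, 36.2 and 39.3 FPKM after cuprizone (log2 change -1.35 ± 0.17, adjusted p = 1.2e-04), and Degs1, the desaturase that completes ceramide, fell too (log2 change -0.73 ± 0.09, adjusted p = 1.6e-04). The groups did not overlap for these 3 genes. Asah1, the lysosomal acid ceramidase, was the member that rose (0.46, adjusted p = 0.015), a call lost when control 3 or cuprizone 1 was left out (adjusted p up to 0.067). Gltp, Smpd1 and Smpd3 were not called.

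The other markers of mature oligodendrocytes fell in 30 of 35 tested genes and rose in none, with a median log2 change of -1.47. Ppp1r14a, an inhibitor of myosin phosphatase, measured 183, 247 and 123 FPKM in the control libraries and 22.4, 20.1 and 16.3 FPKM in the cuprizone libraries (log2 change -3.12 ± 0.24, adjusted p = 5.8e-06). Carns1, which joins the dipeptide carnosine, measured 11.9, 14.5 and 8.15 FPKM in controls and 1.09, 1.499 and 1.18 FPKM after cuprizone (log2 change -2.44 ± 0.16, adjusted p = 2.9e-06). Il33, an alarmin cytokine held in the nucleus, measured 84.8, 109 and 64.999 FPKM in controls and 13.4, 12.1 and 17.5 FPKM after cuprizone (log2 change -2.49 ± 0.18, adjusted p = 4.9e-06). Each of the 3 fell at least 5-fold by group means (9.41, 9.16 and 6.02) with no overlap. Anln, a septin-binding scaffold protein, went from 36.2, 47.8 and 27.1 to 4.299, 2.74 and 6.298 FPKM (log2 change -2.82 ± 0.22, adjusted p = 7.4e-06). Serpinb1a, a protease inhibitor, went from 18.9, 19.9 and 15.5 to 1.01, 0.998 and 3.49 FPKM (log2 change -2.86 ± 0.26, adjusted p = 1.6e-05). Hapln2, a link protein of the node of Ranvier, fell 5.15-fold, Efhd1, a calcium-binding protein of mitochondria, 5.52-fold and Plekhh1 5.47-fold.

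Some abundant genes of these cells were not called. Trf, the iron carrier transferrin, measured 519, 713 and 422 FPKM in the control libraries and 304, 436 and 484 FPKM in the cuprizone libraries (adjusted p = 0.21), and its groups overlapped. Apod and the deacetylase Sirt2 were likewise not called, with log2 changes of -0.54 and -0.13. Cryab, a small heat shock protein of oligodendrocytes and astrocytes, fell too (log2 change -0.78, adjusted p = 0.035), and the call was lost when control 1, control 2, cuprizone 1, cuprizone 3 or AHR CKO control 2 was left out (adjusted p up to 0.14) or under 1 other setting. In all 30 genes called lower, control 2 was the highest control library.

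Other large decreases were in genes of varied role. Prr18 measured 106, 115 and 70.4 FPKM in controls and 13.01, 18.5 and 16.4 FPKM after cuprizone (log2 change -2.52 ± 0.16, adjusted p = 2.9e-06). Tmem125 measured 23.3, 28.8 and 17.98 FPKM in controls and 3.77, 4.06 and 4.55 FPKM after cuprizone (log2 change -2.23 ± 0.15, adjusted p = 2.9e-06). Itgb4, the integrin beta 4 chain, measured 11.5, 14.97 and 8.55 FPKM in controls and 1.14, 1.09 and 1.37 FPKM after cuprizone (log2 change -2.50 ± 0.17, adjusted p = 2.9e-06). None of the 3 overlapped between groups, and their controls followed the same order as myelin, with control 2 highest and control 3 lowest. Among abundant genes, Plekhb1 fell from a mean of 894 to 273 FPKM (-1.68, adjusted p = 3.1e-05), Tubb4a, a beta-tubulin, from 908 to 419.6 FPKM (-1.10, adjusted p = 3.4e-04) and Ptgds, prostaglandin D synthase, from 643 to 168 FPKM (-1.93, adjusted p = 2.3e-04).

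Among genes of earlier stages of the lineage, those of precursors gave no calls and those of differentiating cells gave calls in both directions. Of 17 precursor genes tested none was called in either direction, and the median log2 change was -0.11. All cuprizone libraries lay above all controls in 4 of the 17 (23.5%, against 15.8% over all genes) and below them in 2 (11.8%, against 19.2%). Pdgfra, the growth factor receptor that marks precursors, measured 13.9, 14.02 and 11.1 FPKM in the control libraries and 11.4, 9.695 and 10.2 FPKM in the cuprizone libraries (adjusted p = 0.12). Bcan, the proteoglycan brevican, measured 99.7, 101 and 88.95 FPKM in controls and 100.1, 102 and 97.2 FPKM after cuprizone (adjusted p = 0.74), with full overlap of the groups. Of 18 genes of differentiating oligodendrocytes, 2 rose and 2 fell (11.1% each, near the shares over all genes). Those that rose were Cnksr3 (0.61, adjusted p = 0.026), a scaffold protein whose call was lost when control 3, cuprizone 1 or cuprizone 3 was left out (adjusted p up to 0.092) or under 1 other setting, and the calcium channel Itpr2 (0.52, adjusted p = 0.046), whose call was lost when control 1, control 2, control 3, cuprizone 1, cuprizone 3, AHR CKO control 1, AHR CKO control 2 or AHR CKO cuprizone 2 was left out (adjusted p up to 0.16) or under 4 other settings. Gpr17, a receptor that marks committed precursors, measured 25.98, 29.3 and 18.4 FPKM in controls and 33.9, 32.01 and 31.8 FPKM after cuprizone and was not called (adjusted p = 0.26), although every cuprizone library was above every control. This upward separation held for 6 of the 18 differentiating genes (33.3%), and the downward one for 2 (11.1%). Bcas1, a marker of newly myelinating cells, measured 237, 314 and 173 FPKM in controls and 170.3, 264 and 186 FPKM after cuprizone, with overlapping groups. Chn2, a GTPase-activating protein for Rac, fell (-0.91, adjusted p = 7.2e-04), and Enpp6, a choline phosphodiesterase of new oligodendrocytes, fell as well (-0.88, adjusted p = 0.027), a call lost when control 1, control 2, cuprizone 1 or cuprizone 2 was left out (adjusted p up to 0.10) or under 1 other setting.

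Of 14 transcription factors of the lineage, 7 fell and none rose. Zfp536, a zinc finger protein, measured 6.9002, 6.94 and 5.12 FPKM in the control libraries and 2.08, 2.32 and 2.22 FPKM in the cuprizone libraries (log2 change -1.18 ± 0.17, adjusted p = 4.2e-04). Sox8, a relative of Sox10, measured 42.6, 46.1 and 33.4 FPKM in controls and 23.5, 25.6 and 25.6 FPKM after cuprizone (log2 change -0.68 ± 0.11, adjusted p = 0.0012). Both were lower in every cuprizone library. Olig2, which is present from the precursor to the mature cell, measured 39.3, 53.8 and 30.8 FPKM in controls and 30.5, 37.5 and 32.7 FPKM after cuprizone and was not called (adjusted p = 0.35). Yy1 and Zeb2 were not called either.

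The sites where oligodendrocytes meet axons and other glia changed in part. Of 19 genes of the node and paranode, 5 fell (26.3%) and 2 rose (10.5%, near the share over all genes). Cntn2, an adhesion protein beside the paranode, measured 51.5, 62.7 and 38.5 FPKM in the control libraries and 12.5, 18.01 and 14.8 FPKM in the cuprizone libraries (log2 change -1.68 ± 0.16, adjusted p = 2.0e-05). Kcna1, the potassium channel gathered under the sheath beside the paranode, measured 43.9, 45.8 and 41.97 FPKM in controls and 19.4, 22.3 and 24.6 FPKM after cuprizone (log2 change -0.96 ± 0.09, adjusted p = 2.4e-05). Ank3, which encodes the axonal scaffold ankyrin G, measured 46.3, 42.7 and 47.1 FPKM in controls and 30.9, 31.7 and 31.9 FPKM after cuprizone (log2 change -0.51 ± 0.07, adjusted p = 3.6e-04), and Sptbn1, a beta-spectrin, fell too (log2 change -0.40, adjusted p = 0.0074). No library of 1 group reached the other in any of the 4. Gldn, the matrix protein gliomedin, rose from 0.298, 0.333 and 0.2903 to 1.74, 1.01 and 1.01 FPKM (0.77, adjusted p = 0.0096), close to the minimum level tested. Kcnab2, a potassium channel subunit, was the other gene that rose (0.34, adjusted p = 0.043), a call lost when control 1, control 2, cuprizone 1, cuprizone 3, AHR CKO control 1, AHR CKO control 2 or AHR CKO cuprizone 2 was left out (adjusted p up to 0.16) or under 3 other settings.

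Connexins, the channel proteins of gap junctions, moved in opposite directions by cell type. The oligodendrocyte connexin Gjb1 (Cx32) fell and measured 53.02, 65.9 and 35.999 FPKM in the control libraries and 11.2, 17.4 and 20.7 FPKM in the cuprizone libraries (log2 change -1.59 ± 0.27, adjusted p = 0.0013). The astrocyte connexins Gjb6 (Cx30) and Gjb2 (Cx26) rose. Gjb6 measured 27.4, 30.96 and 26.2 FPKM in controls and 52.2, 49.2 and 45.4 FPKM after cuprizone (log2 change 0.77 ± 0.10, adjusted p = 1.2e-04), Gjb2 went from a mean of 2.17 to 4.71 FPKM (log2 change 0.85 ± 0.17, adjusted p = 0.004), and Gja1 (Cx43) was not called (0.34, adjusted p = 0.10). In total 3 of the 9 connexin and pannexin genes fell and 2 rose.

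Sterol synthesis fell in 22 of 24 genes and rose in none, with a median log2 change of -0.87. Idi1, which makes an isoprenoid building block of cholesterol, measured 15.9, 15.6 and 11.01 FPKM in the control libraries and 3.72, 4.37 and 4.37 FPKM in the cuprizone libraries (log2 change -1.54 ± 0.14, adjusted p = 1.6e-05). The 2 genes not called, Pmvk (-0.27) and Tm7sf2 (-0.39), had values below 0 as well, with overlapping libraries. In fatty acid synthesis 7 of 18 genes fell (38.9%) and 3 rose (16.7%). Scd1, the stearoyl-CoA desaturase, measured 175, 195 and 131 FPKM in controls and 48.4, 63.8 and 52.3 FPKM after cuprizone (log2 change -1.58 ± 0.14, adjusted p = 1.6e-05). Acss2, which makes acetyl-CoA from acetate, measured 27.8, 31.3 and 23.1 FPKM in controls and 12.1, 16.6 and 14.9 FPKM after cuprizone (log2 change -0.87 ± 0.13, adjusted p = 4.9e-04), and Elovl6, which lengthens palmitate, fell too (log2 change -0.73, adjusted p = 1.5e-04). Srebf1, the transcription factor that drives fatty acid synthesis genes, was among the 3 that rose, from 23.9, 25.5 and 19.1 to 40.4, 39.1 and 37.2 FPKM (log2 change 0.75 ± 0.12, adjusted p = 6.3e-04). Acly and Fads1, 2 abundant enzymes of the list, were not called.

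The sterol response element, bound by the factors that control sterol genes, was sought as TCACNCCAC on both strands in the 250 bases before each gene start, in RefSeq promoters of GRCm38.p6. It was found in 1 of the 17 sterol synthesis promoters available and in 1.036% of all 27018 promoters (0.952% of those of tested genes). The window is shown for the enzyme at the head of the pathway, Hmgcs1, which fell (log2 change -1.40 ± 0.13, adjusted p = 1.5e-05), from chr13:119690184-119690252, plus strand, written 5′ to 3′ with the motif in capitals at position -137 from the start. A match here and below is a description of the letters, not a site or a cause.
Hmgcs1: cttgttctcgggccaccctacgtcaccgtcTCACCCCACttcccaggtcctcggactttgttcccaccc
Promoters were available for under 80% of the sterol list, as for the other lists searched except the immune signalling list, so a comparison of the list's share with that of all promoters is void there.

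Genes that export, carry and store cholesterol rose in 11 of 26 cases and fell in 4. Apoc1, a small lipoprotein component encoded beside Apoe, measured 3.33, 1.395 and 1.93 FPKM in the control libraries and 88.3, 43.7 and 45.1 FPKM in the cuprizone libraries (log2 change 4.19 ± 0.44, adjusted p = 3.9e-05), a 26.6-fold difference of means. Npc1, which lets cholesterol leave the lysosome, measured 37.7, 40.3 and 27.5 FPKM in controls and 22.2, 21.1 and 19.6 FPKM after cuprizone (log2 change -0.70 ± 0.14, adjusted p = 0.0036), and Plin3, a coat protein of lipid droplets, 21.6, 25.4 and 16.6 FPKM in controls and 12.3, 10.3 and 12.4 FPKM after cuprizone (log2 change -0.80 ± 0.13, adjusted p = 0.0011), and both were lower in every cuprizone library. The phospholipid transfer protein Pltp (0.03) and the neuronal cholesterol hydroxylase Cyp46a1 (-0.27) were not called.

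Genes of microglia and macrophages rose across most roles. Homeostatic microglial genes rose in 12 of 24 cases and fell in none. Olfml3, a secreted glycoprotein, measured 13.8, 14.9 and 12.9 FPKM in the control libraries and 50.6, 30.1 and 41.1 FPKM in the cuprizone libraries (log2 change 1.46 ± 0.19, adjusted p = 2.1e-04), and Il10ra, the receptor of the anti-inflammatory cytokine interleukin 10, 2.28, 2.23 and 1.88 FPKM in controls and 8.24, 6.02 and 8.18 FPKM after cuprizone (log2 change 1.43 ± 0.16, adjusted p = 5.3e-05). P2ry12, the purine receptor of resting microglia, measured 27.1, 23.9 and 22.5 FPKM in controls and 25.9, 16.9 and 22.8 FPKM after cuprizone and was not called (adjusted p = 0.54), and its groups overlapped. Cx3cr1, the microglial receptor of neuronal fractalkine, measured 24.9, 24.4 and 22.6 FPKM in controls and 69.4, 49.4 and 58.7 FPKM after cuprizone without overlap (log2 change 1.26), and its adjusted p was 0.36. Cx3cr1 ranged from 0.801 to 29.6 FPKM over the AHR CKO libraries, which share the estimate of spread, and in a fit of the 6 WT libraries alone its adjusted p was 0.00092. Ahr itself measured 2.22, 1.48 and 1.65 FPKM in controls and 1.73, 1.85 and 2.01 FPKM after cuprizone (adjusted p = 0.87).

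Genes described for microglia in disease and demyelination rose in 22 of 30 cases, with a median log2 change of 1.54. Ccl6, a chemokine of myeloid cells, measured 1.94, 2.85 and 2.05 FPKM in the control libraries and 51.5, 38.2 and 47.7 FPKM in the cuprizone libraries (log2 change 3.83 ± 0.21, adjusted p = 1.3e-06). Cd52, a small surface glycoprotein, measured 6.93, 12.8 and 5.495 FPKM in controls and 241, 121 and 159.8 FPKM after cuprizone (log2 change 4.24 ± 0.29, adjusted p = 3.3e-06), and Gpnmb, a lysosomal glycoprotein, 0.563, 0.7396 and 0.581 FPKM in controls and 29.9, 14.1 and 7.16 FPKM after cuprizone (log2 change 3.26 ± 0.45, adjusted p = 2.9e-04). The groups did not overlap in these 3, and cuprizone 1 was the highest library in all of them, as in the 22 genes of the list called higher. Axl, a receptor for dying cells, and Igf1, a growth factor that supports myelination, rose 3.09-fold and 4.32-fold. Fth1, the ferritin heavy chain, fell from 8055, 10782 and 6570.2 to 4247, 5505 and 5023 FPKM (log2 change -0.76 ± 0.22, adjusted p = 0.032), and this call was lost when control 1, control 2, cuprizone 1 or cuprizone 3 was left out (adjusted p up to 0.13) or under 4 other settings. With quantile normalization its log2 change was -0.18 (adjusted p = 0.39). Outside the list, Lyz2, the lysozyme of macrophages, measured 6.59, 14.8 and 8.11 FPKM in controls and 251, 194 and 153 FPKM after cuprizone (log2 change 4.25 ± 0.34, adjusted p = 9.4e-06), and Capg, an actin-capping protein of macrophages, 1.77, 2.48 and 2.17 FPKM in controls and 34.4, 24.9 and 22.1 FPKM after cuprizone (log2 change 3.15 ± 0.19, adjusted p = 2.1e-06).

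Each of the 6 Fc receptor genes that could be tested rose (median log2 change 2.36). They encode the receptors by which phagocytes bind antibody. Fcgr3 measured 11.2, 12.99 and 11.8 FPKM in the control libraries and 95.8, 58.3 and 78.9 FPKM in the cuprizone libraries (log2 change 2.57 ± 0.22, adjusted p = 1.0e-05). The inhibitory receptor Fcgr2b measured 2.66, 2.16 and 2.08 FPKM in controls and 29.9, 11.6 and 22.2 FPKM after cuprizone (log2 change 2.66 ± 0.29, adjusted p = 5.6e-05), and the high-affinity receptor Fcgr1 1.43, 1.58 and 1.43 FPKM in controls and 12.4, 7.13 and 11.2 FPKM after cuprizone (log2 change 2.15 ± 0.18, adjusted p = 9.4e-06). In the 3 genes cuprizone 1 was highest and cuprizone 2 lowest of the treated libraries, and all lay above the controls. Of the 7 paired immune receptors tested, out of 30 listed, 5 rose. For 3 of these, Cd22 and Siglec5 among them, only the cuprizone libraries reached the level tested. Cd22, a sialic acid receptor, went from 0.0741, 0.0547 and 0.0688 to 4.01, 3.16 and 2.23 FPKM (log2 change 1.93 ± 0.22, adjusted p = 7.2e-05), and Siglec5, another of this class, from 0.168, 0.263 and 0.212 to 6.27, 3.69 and 4.16 FPKM (log2 change 2.21 ± 0.26, adjusted p = 8.0e-05). Cd47, the signal that protects cells from engulfment, fell (-0.50, adjusted p = 0.048), a call lost when control 1, control 2, control 3, cuprizone 1, cuprizone 2, cuprizone 3, AHR CKO control 2 or AHR CKO cuprizone 2 was left out (adjusted p up to 0.14) or under 6 other settings. The C-type lectins Clec4a3 (0.94) and Clec5a (0.88) and the Ms4a genes Ms4a6c (1.95) and Ms4a6d (2.05) rose from under 2 FPKM.

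Of the 8 genes of the phagocyte NADPH oxidase, which makes superoxide, 7 rose. Cyba, the smaller membrane subunit, measured 13.6, 14.8 and 10.3 FPKM in the control libraries and 100.2, 85.1 and 74.8 FPKM in the cuprizone libraries (log2 change 2.66 ± 0.18, adjusted p = 2.9e-06). Cybb, the catalytic subunit, measured 0.0943, 0.331 and 0.137 FPKM in controls and 6.28, 3.94 and 5.44 FPKM after cuprizone (log2 change 2.38 ± 0.24, adjusted p = 3.3e-05). In both genes all cuprizone libraries exceeded all controls. Rac1, the member used in every cell, was the one not called (-0.02). Engulfment receptors and bridges were mixed, with 5 higher (26.3%) and 3 lower (15.8%) of 19. Itgb5, an integrin that binds dying cells through a bridge, measured 20.3, 22.7 and 18.6 FPKM in controls and 75.3, 56.3 and 65.9 FPKM after cuprizone (log2 change 1.63 ± 0.14, adjusted p = 1.1e-05), and Pros1, a ligand of Axl and its relatives, 5.96, 6.02 and 5.04 FPKM in controls and 22.5, 16.8 and 16.97 FPKM after cuprizone (log2 change 1.56 ± 0.16, adjusted p = 3.4e-05). Tyro3, the neuronal and oligodendroglial relative of Axl, fell from 74.7, 81.6 and 69.8 to 33.1, 58.2 and 42.96 FPKM (log2 change -0.77 ± 0.16, adjusted p = 0.0053). Without control 1, control 3 or cuprizone 1 the list had 3 higher genes.

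Of 29 proteins that signal from immune receptors 28 rose, with a median log2 change of 1.44. Ptpn6, the phosphatase SHP-1, measured 3.096, 3.32 and 2.64 FPKM in the control libraries and 22.6, 16.2 and 17.2 FPKM in the cuprizone libraries (log2 change 2.28 ± 0.20, adjusted p = 1.1e-05). Ptprc, the leukocyte antigen CD45, measured 1.08, 1.25 and 0.897 FPKM in controls and 12.2, 8.15 and 9.96 FPKM after cuprizone (log2 change 2.41 ± 0.24, adjusted p = 2.6e-05), and Hcls1, an actin regulator of blood cells, 4.49, 4.83 and 2.87 FPKM in controls and 23.4, 16.1 and 18.6 FPKM after cuprizone (log2 change 2.02 ± 0.19, adjusted p = 2.0e-05). The groups were separate and cuprizone 1 was highest in each, as in 27 of the 28. Sla was the gene not called (0.19). Of 32 myeloid transcription factors 17 rose and none fell. Spi1 (PU.1), the factor that sets the myeloid fate, measured 6.26, 6.01 and 4.78 FPKM in controls and 30.8, 22.4 and 27.9 FPKM after cuprizone (log2 change 2.06 ± 0.19, adjusted p = 1.5e-05), and Irf8, which microglia need to form, 4.03, 4.04 and 3.403 FPKM in controls and 33.7, 23.6 and 25.01 FPKM after cuprizone (log2 change 2.54 ± 0.23, adjusted p = 1.3e-05). Cebpa and Cebpd rose 2.899-fold and 2.96-fold, whereas Rela, Klf6 and Bhlhe40, which many cell types express, were not called.

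The PU.1 motif, searched as GAGGAAGT on both strands in the 250 bases before the start, was present in 3 of the 25 promoters of immune signalling genes, which cover 86.21% of that list, and in 2.443% of all promoters (2.177% of those of tested genes). Windows of the signalling adaptor Vav1 (1.53, adjusted p = 1.6e-04, chr17:57279059-57279099, plus strand, position -11) and the tetraspanin Cd37 (1.88, adjusted p = 8.6e-05, chr7:45238840-45238894, minus strand, position -25, motif on the opposite strand) are shown because these members rose and hold it. The capitals mark the motif.
Vav1: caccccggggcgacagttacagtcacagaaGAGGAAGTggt
Cd37: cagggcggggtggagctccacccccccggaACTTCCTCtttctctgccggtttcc

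Lysosomal genes rose in 21 of 39 cases and fell in none, with a median of 0.41. Slc11a1, a metal transporter of the phagosome, measured 2.06, 2.02 and 2.201 FPKM in the control libraries and 23.4, 17.3 and 19.8 FPKM in the cuprizone libraries (log2 change 2.76 ± 0.21, adjusted p = 6.1e-06), and Slc15a3, a peptide transporter of the same membrane, 1.18, 1.19 and 0.877 FPKM in controls and 13.6, 10.5 and 10.9 FPKM after cuprizone (log2 change 2.60 ± 0.23, adjusted p = 1.2e-05). The housekeeping members Lamp1 (0.14), Gaa (0.11) and Ids (-0.25) were not called. Of 16 cathepsins and cystatins, 11 rose and 1 fell. Ctss, a cathepsin that trims class II peptides, measured 87.8, 94.4 and 80.9 FPKM in controls and 675, 409.7 and 489 FPKM after cuprizone (log2 change 2.54 ± 0.22, adjusted p = 1.2e-05), and Ctsz 42.6, 57.1 and 47.7 FPKM in controls and 303, 200.4 and 203 FPKM after cuprizone (log2 change 2.22 ± 0.17, adjusted p = 6.0e-06). Ctsk, cathepsin K, was the one that fell (-0.71, adjusted p = 0.033), a call lost when control 1, control 2, cuprizone 1 or cuprizone 3 was left out (adjusted p up to 0.13) or under 2 other settings. Cst3, the abundant inhibitor cystatin C, rose from a mean of 1935 to 3133 FPKM (log2 change 0.70 ± 0.13, adjusted p = 0.0028). The proton pump that acidifies lysosomes had 1 of 19 genes higher (5.26%; Atp6v0e, 0.89, adjusted p = 0.0012) and 3 lower (15.8%), and none was called lower without control 1 or cuprizone 1 and 1 without control 3. The lysosomal motif TCACGTGA was found in 3 of 31 promoters of the lysosomal list and in 0.8032% of all promoters (1.527% of those of tested genes), and none of these 3 genes was called.

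Complement genes rose in 12 of the 17 tested and fell in none, with a median of 1.26. C1qc, a chain of the molecule that starts the classical pathway, measured 49.4, 62.4 and 46.7 FPKM in the control libraries and 407, 288 and 290.2 FPKM in the cuprizone libraries (log2 change 2.61 ± 0.17, adjusted p = 2.9e-06). Itgb2, the shared chain of the complement receptors CR3 and CR4, measured 3.14, 3.32 and 2.97 FPKM in controls and 30.9, 19.2 and 19.3 FPKM after cuprizone (log2 change 2.51 ± 0.24, adjusted p = 1.9e-05). Clu, the inhibitor clusterin of astrocytes, rose too (1.54-fold, adjusted p = 0.0054), whereas Cd59a (-0.29), Masp1 (-0.39) and Cfp (0.32) were not called.

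Antigen presentation rose on both arms. For class I and the immunoproteasome, 19 of 20 genes were higher and the median was 1.17. Tap1, which pumps peptides into the endoplasmic reticulum, measured 1.41, 1.38 and 1.35 FPKM in the control libraries and 8.43, 5.49 and 7.95 FPKM in the cuprizone libraries (log2 change 1.78 ± 0.14, adjusted p = 8.5e-06), and Psmb9, an inducible proteasome subunit, 0.5299, 2.02 and 0.512 FPKM in controls and 9.38, 5.35 and 7.35 FPKM after cuprizone (log2 change 2.10 ± 0.31, adjusted p = 4.4e-04). Psmb10 was the one not called (0.40). The 10 class II genes tested, of 14 listed, all rose, with a median of 1.93. H2-Ab1, a beta chain of the class II molecule, measured 1.61, 1.49 and 1.61 FPKM in controls and 39.1, 9.79 and 39.1 FPKM after cuprizone (log2 change 3.33 ± 0.46, adjusted p = 2.6e-04). H2-DMb1, which helps to load peptides, measured 1.01, 1.45 and 1.199 FPKM in controls and 9.33, 5.48 and 7.28 FPKM after cuprizone (log2 change 1.89 ± 0.20, adjusted p = 3.8e-05), and Ifi30, which opens disulfide bonds of antigens, 3.15, 4.78 and 1.97 FPKM in controls and 18.3, 12.4 and 15.8 FPKM after cuprizone (log2 change 1.98 ± 0.24, adjusted p = 1.2e-04).

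The rise of class II was uneven. Summed over the 11 genes of the list in the table, 1 of them below the level tested, it was 282, 89.5 and 263 FPKM in cuprizone 1 to 3 against 20.9, 23.3 and 19.2 FPKM in the controls. Cuprizone 2 was the lowest treated library in all 10 genes and had the lowest choroid plexus sum, and cuprizone 1 had the highest of both sums. H2-Eb1, with 9.69, 1.71 and 12.1 FPKM after cuprizone and 0.683, 0.5298 and 1.15 FPKM in controls (log2 change 2.03 ± 0.52, adjusted p = 0.017), lost its call when control 1, control 2, cuprizone 1 or cuprizone 3 was left out (adjusted p up to 0.077).

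**Figure D3:**
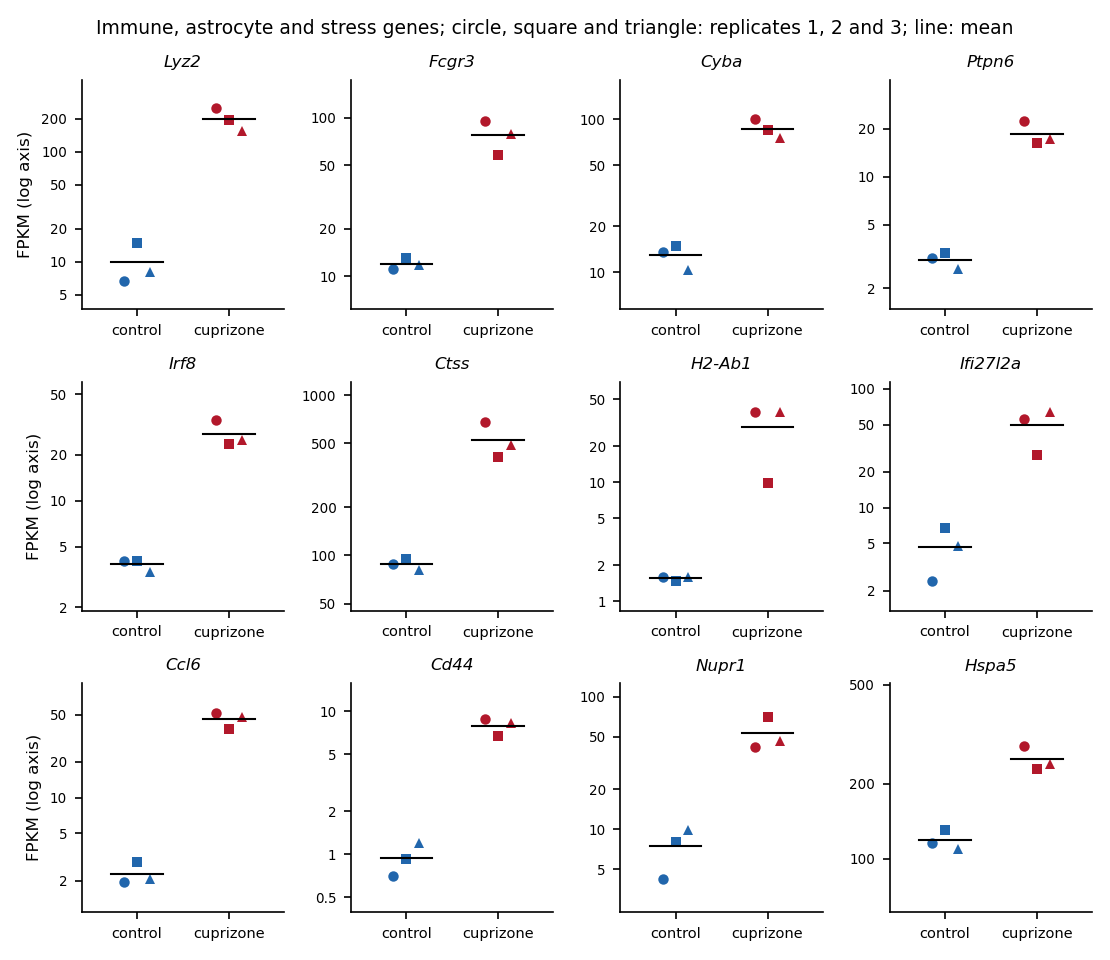
FPKM on a log axis of 12 genes of immune cells, astrocytes and stress in each WT library. Circles, squares and triangles are replicates 1, 2 and 3, and lines are group means. No gene overlaps between the groups, and H2-Ab1 shows cuprizone 2 (square, 39.1, 9.79 and 39.1 FPKM for replicates 1 to 3) well below the other treated libraries.

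Effectors of the interferon response rose in 31 of 41 genes tested, of 49 listed, and fell in none. The median was 1.14, and the sum over the 47 effectors in the table, tested or not, was 192, 182 and 158 FPKM in controls and 699.7, 419 and 626 FPKM after cuprizone. Ifi27l2a, a small interferon-induced membrane protein, measured 2.43, 6.697 and 4.77 FPKM in the control libraries and 55.9, 27.6 and 64.3 FPKM in the cuprizone libraries (log2 change 3.15 ± 0.51, adjusted p = 9.3e-04). Ifi204, a nucleic acid sensor, measured 0.365, 0.448 and 0.0717 FPKM in controls and 7.26, 3.25 and 6.83 FPKM after cuprizone (log2 change 2.34 ± 0.27, adjusted p = 8.8e-05), and Slfn2, a regulator of immune cell growth, 1.05, 0.771 and 1.58 FPKM in controls and 7.58, 5.596 and 7.17 FPKM after cuprizone (log2 change 1.88 ± 0.21, adjusted p = 6.2e-05). Cuprizone 2 was the lowest treated library in all 31 genes called. Of the interferon-induced GTPases, which attack vacuoles of intracellular microbes, 9 of 10 tested rose. Irgm1 measured 5.48, 4.59 and 3.24 FPKM in controls and 16.4, 10.3 and 14.3 FPKM after cuprizone (log2 change 1.43 ± 0.19, adjusted p = 2.3e-04), Gbp3 3.62, 2.63 and 3.43 FPKM in controls and 10.1, 9.39 and 10.95 FPKM after cuprizone (log2 change 1.40 ± 0.17, adjusted p = 1.0e-04) and Igtp 3.91, 2.66 and 2.67 FPKM in controls and 9.81, 7.09 and 10.1 FPKM after cuprizone (log2 change 1.29 ± 0.16, adjusted p = 1.2e-04). Gbp9 had an adjusted p of 0.05 and was not called. Cmpk2 (0.40) and Ifitm2 (0.34) were effectors not called.

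The interferon-stimulated response element, the site of the factors activated by interferon, was searched on both strands as GAAA, any 2 bases and GAAA again. It was in 14 of the 30 promoters available for the effectors and in 3.039% of all 27018 promoters and 2.413% of those of tested genes (within 150 bases of the start, 12 of 30 and 1.603% of all). The windows of 2 effectors that rose are shown: Oas1a, an enzyme that senses double-stranded RNA (0.194, 0.5199 and 0.312 FPKM in controls and 4.49, 2.23 and 4.87 FPKM after cuprizone, log2 change 1.82 ± 0.20, adjusted p = 6.2e-05), at chr5:120907526-120907575 on the minus strand with 2 overlapping matches from positions -20 and -14, and Lgals9, a secreted galectin (4.59, 4.66 and 3.698 FPKM in controls and 20.6, 11.5 and 15.3 FPKM after cuprizone, log2 change 1.63 ± 0.19, adjusted p = 9.0e-05), at chr11:78984940-78985009 on the minus strand with the match on the opposite strand at position -55. Capitals mark the motif.
Oas1a: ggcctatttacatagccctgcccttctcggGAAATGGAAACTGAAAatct
Lgals9: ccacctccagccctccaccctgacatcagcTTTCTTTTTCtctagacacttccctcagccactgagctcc

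Chemokines rose in 9 of 14 genes tested, of 30 listed. Ccl5, which draws T cells and monocytes, measured 1.94, 0.974 and 1.35 FPKM in the control libraries and 12.9, 5.11 and 20.6 FPKM in the cuprizone libraries (log2 change 2.36 ± 0.36, adjusted p = 5.9e-04). Ccl9, a relative of Ccl6, measured 0.9999, 1.13 and 0.8798 FPKM in controls and 5.69, 3.46 and 6.25 FPKM after cuprizone (log2 change 1.58 ± 0.18, adjusted p = 8.0e-05). Both were separate from the controls, and cuprizone 2 was the lowest treated library in each. Cxcl12 (0.33), Cx3cl1 (-0.22) and Ccl27a (-0.44) were not called. The NF-kB motif, searched on both strands as GGG, any 2 bases and TTTCC, was in 1 of 11 chemokine promoters, that of Ccl9, and in 1.399% of all promoters (1.273% of those of tested genes). Its window at chr11:83578637-83578701, minus strand, holds it on the opposite strand at position -35.
Ccl9: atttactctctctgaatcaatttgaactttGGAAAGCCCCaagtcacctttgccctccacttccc
Of 13 chemoattractant receptors 7 rose. P2ry6, a receptor for uridine diphosphate that triggers phagocytosis, measured 2.05, 2.33 and 1.54 FPKM in controls and 14.2, 10.9 and 12.9 FPKM after cuprizone (log2 change 2.20 ± 0.18, adjusted p = 9.4e-06), Cmklr1, the chemerin receptor, 1.21, 1.42 and 1.14 FPKM in controls and 6.68, 3.56 and 5.77 FPKM after cuprizone (log2 change 1.46 ± 0.18, adjusted p = 1.2e-04) and Cxcr4, the receptor of Cxcl12, 2.81, 3.24 and 2.92 FPKM in controls and 10.7, 6.59 and 8.39 FPKM after cuprizone (log2 change 1.24 ± 0.18, adjusted p = 4.0e-04).

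Toll-like receptor and inflammasome genes rose in 21 of 26 cases, of which 8 reached the level tested in the cuprizone libraries alone, and 1 fell. Ly86, a partner of a toll-like receptor homologue, measured 15.2, 19.4 and 16.6 FPKM in the control libraries and 121, 69.7 and 78.9 FPKM in the cuprizone libraries (log2 change 2.30 ± 0.19, adjusted p = 9.4e-06). Unc93b1, which brings nucleic acid sensing receptors to endosomes, measured 12.03, 12.5 and 10.7 FPKM in controls and 54.9, 40.8 and 44.5 FPKM after cuprizone (log2 change 1.90 ± 0.18, adjusted p = 2.0e-05), and Pycard, the adaptor ASC of inflammasomes, 1.499, 1.89 and 1.12 FPKM in controls and 8.03, 5.47 and 6.54 FPKM after cuprizone (log2 change 1.62 ± 0.16, adjusted p = 3.0e-05). Il18, the cytokine interleukin 18, was the one that fell (-0.37, adjusted p = 0.043), a call lost when control 1, control 2, control 3, cuprizone 1, cuprizone 2, cuprizone 3, AHR CKO control 1 or AHR CKO control 2 was left out (adjusted p up to 0.12) or under 3 other settings. Tlr3, Ticam1 and the DNA sensor Aim2 were not called. Cytokines and their receptors rose in 22 of 36 cases (61.1%) and fell in 4 (11.1%). Tnfrsf1a, a receptor of tumour necrosis factor, measured 8.42, 8.58 and 6.59 FPKM in controls and 26.3, 20.3 and 21.8 FPKM after cuprizone (log2 change 1.43 ± 0.15, adjusted p = 4.0e-05), and Il3ra, the receptor of interleukin 3, 0.358, 0.248 and 0.522 FPKM in controls and 4.62, 2.58 and 3.997 FPKM after cuprizone (log2 change 1.76 ± 0.18, adjusted p = 3.5e-05). Il1rap, an interleukin 1 receptor chain, fell from 31.1, 34.7 and 20.7 to 16.6, 15.1 and 17.5 FPKM (log2 change -0.75 ± 0.19, adjusted p = 0.014), a call lost when control 1 or control 2 was left out (adjusted p up to 0.066). The list had 1 lower gene without control 1 or control 2 and 2 without cuprizone 2 or cuprizone 3.

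Few markers of blood-borne and border cells could be tested. Of 48 markers, namely 12 of T cells, 7 of B cells, 7 of natural killer cells, 8 of neutrophils, 6 of monocytes and 8 of border macrophages, 15 were in the table used here, 13 of them under the level tested, and the other 33 were not analysed here. The 2 tested, Cd4 and Pf4, were not called. Cd4 measured 3.06, 5.61 and 19.1 FPKM in the control libraries and 2.92, 2.15 and 4.79 FPKM in the cuprizone libraries and was highest in control 3, the library with the highest striatal sum. Pf4 measured 0.585, 1.18 and 1.11 FPKM in controls and 2.399, 1.16 and 1.08 FPKM after cuprizone, with overlapping groups. The 7 border macrophage markers in the table, Pf4 included, summed to 1.897, 3.59 and 3.41 FPKM in controls and 7.02, 3.699 and 4.92 FPKM after cuprizone. The sums separated only narrowly (3.699 against 3.59 FPKM), and 6 of the 7 markers were under the level tested. Folr2 was higher in every cuprizone library than in every control, whereas Mrc1, Cbr2, Lyve1, Cd163 and Ms4a7 overlapped, as Pf4 did. The 3 monocyte markers summed to 1.46, 0.532 and 0.689 FPKM in controls and 1.35, 1.36 and 2.89 FPKM after cuprizone, with overlap. The 3 T cell markers summed to 3.46, 6.2001 and 20.2 FPKM and 4.301, 3.22 and 6.55 FPKM, mostly Cd4. A low value in this table does not show that a gene is absent, since Gapdh, a glycolytic enzyme of every cell, is listed at 0.147 to 0.837 FPKM in the 6 libraries.

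Genes of reactive astrocytes rose in 20 of 24 cases tested and fell in none, with a median of 1.67. Timp1, an inhibitor of matrix proteases, measured 0.271, 0.542 and 0.255 FPKM in the control libraries and 6.98, 5.44 and 6.86 FPKM in the cuprizone libraries (log2 change 2.45 ± 0.30, adjusted p = 1.2e-04). Cd44, the hyaluronan receptor, measured 0.703, 0.931 and 1.195 FPKM in controls and 8.78, 6.69 and 8.24 FPKM after cuprizone (log2 change 2.20 ± 0.21, adjusted p = 1.9e-05), and Hspb1, a small heat shock protein, 4.87, 10.3 and 9.04 FPKM in controls and 33.3, 31.2 and 27.8 FPKM after cuprizone (log2 change 1.86 ± 0.20, adjusted p = 4.4e-05). The groups did not overlap for the 3 genes. A2m, a broad protease inhibitor, was among the largest increases of all genes, at 0.522, 0.529 and 0.302 FPKM in controls and 21.3, 10.98 and 9.67 FPKM after cuprizone (log2 change 3.29 ± 0.34, adjusted p = 3.2e-05), a 31.02-fold difference of means. Tm4sf1, Fkbp5 and Amigo2 were members not called.

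Of 30 genes for the resting duties of astrocytes 12 rose and 1 fell. Aldh1l1, an enzyme used as an astrocyte marker, measured 27.8, 25.7 and 22.5 FPKM in the control libraries and 34.3, 39.7 and 36.4 FPKM in the cuprizone libraries (log2 change 0.52 ± 0.09, adjusted p = 0.0018). Mt3, a metallothionein of the brain, measured 568, 607 and 522 FPKM in controls and 882, 953 and 844 FPKM after cuprizone (log2 change 0.66 ± 0.14, adjusted p = 0.0072). The main glutamate transporter Slc1a2 measured 381, 371 and 369 FPKM in controls and 359, 356 and 334 FPKM after cuprizone and glutamine synthetase Glul 1046, 1091 and 855 FPKM in controls and 918, 918 and 853 FPKM after cuprizone, and neither was called. S100b, a calcium-binding protein of astrocytes and oligodendrocytes, was the member that fell (-0.37, adjusted p = 0.0071), a call lost with quantile normalization (adjusted p = 0.058). Among S100 proteins and annexins, 9 of 16 rose and 1, S100b, fell. S100a6 measured 17.3, 23.6 and 17.5 FPKM in controls and 76.6, 84.7 and 66.1 FPKM after cuprizone (log2 change 1.92 ± 0.17, adjusted p = 1.3e-05) and Anxa3 9.96, 10.8 and 8.78 FPKM in controls and 47.9, 32.2 and 34.3 FPKM after cuprizone (log2 change 1.83 ± 0.19, adjusted p = 3.2e-05).

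Matrix and growth factor genes changed singly. Of 29 matrix genes 4 rose (13.8%) and 2 fell (6.9%), and without cuprizone 1 there were 2 higher. The lower genes were Hapln2 and the laminin chain Lamc1 (-0.38, adjusted p = 0.037), a call lost when control 1, control 2, cuprizone 1, cuprizone 2, cuprizone 3 or AHR CKO control 2 was left out (adjusted p up to 0.13) or under 2 other settings. Fn1, fibronectin, measured 4.901, 5.15 and 5.68 FPKM in the control libraries and 17.4, 8.81 and 11.4 FPKM in the cuprizone libraries (log2 change 1.07 ± 0.27, adjusted p = 0.015), a call lost when cuprizone 1 was left out (adjusted p up to 0.067). Postn, the matrix protein periostin of the fibroblast list, measured 0.454, 0.545 and 0.3503 FPKM in controls and 6.25, 4.31 and 6.99 FPKM after cuprizone (log2 change 2.22 ± 0.19, adjusted p = 1.2e-05). Of 21 matrix proteases and inhibitors 4 rose (19%) and 2 fell (9.52%, near the share over all genes). Plau, the urokinase activator of plasminogen, measured 2.32, 2.24 and 1.03 FPKM in controls and 12.5, 10.9 and 9.69 FPKM after cuprizone (log2 change 2.10 ± 0.21, adjusted p = 3.1e-05), and its receptor Plaur 1.17, 1.65 and 0.807 FPKM in controls and 6.08, 6.403 and 5.35 FPKM after cuprizone (log2 change 1.67 ± 0.24, adjusted p = 3.5e-04). Adamts4, a protease that oligodendrocytes express, fell from 35.6, 41.7 and 25.1 to 10.7, 10.1 and 11.4 FPKM (log2 change -1.56 ± 0.20, adjusted p = 1.9e-04). The other lower gene, Mmp16, had an adjusted p of 0.049, and its call was lost when control 1, control 2, control 3, cuprizone 1, cuprizone 2, cuprizone 3, AHR CKO control 1, AHR CKO control 2, AHR CKO control 3 or AHR CKO cuprizone 2 was left out (adjusted p up to 0.14) or under 6 other settings.

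Among 37 growth factors and receptors 6 rose (16.2%) and 4 fell (10.8%). Cntf, the ciliary neurotrophic factor of astrocytes, measured 1.19, 1.41 and 0.339 FPKM in the control libraries and 5.06, 6.87 and 7.08 FPKM in the cuprizone libraries (log2 change 1.92 ± 0.23, adjusted p = 8.6e-05). The fibroblast growth factor receptors diverged: Fgfr1 measured 18.99, 19.3 and 17.6 FPKM in controls and 38.1, 30.8 and 33.8 FPKM after cuprizone (log2 change 0.84 ± 0.10, adjusted p = 1.2e-04) and Fgfr2, found on oligodendrocytes, 33.02, 33.5 and 22.9 FPKM in controls and 13.9, 13.5 and 13.99 FPKM after cuprizone (log2 change -1.04 ± 0.14, adjusted p = 2.2e-04). Tgfa fell from 25.1, 30.8 and 44.2 to 14.1, 12.97 and 19.9 FPKM (log2 change -1.03 ± 0.20, adjusted p = 0.0037), with a log2 change of -0.57 when libraries were weighted by quality. In transforming growth factor beta signalling 6 of 35 genes rose (17.1%) and 2 fell (5.71%, below the share over all genes). The ligand Tgfb1 measured 5.004, 4.27 and 4.26 FPKM in controls and 18.97, 16.2 and 15.7 FPKM after cuprizone (log2 change 1.70 ± 0.18, adjusted p = 4.2e-05), and the receptors Tgfbr1 and Tgfbr2 rose 2.32-fold and 2.87-fold, while the inhibitor Smad7 fell (-0.66, adjusted p = 0.0035). The ligand Bmp2 was the other that fell (-0.55, adjusted p = 0.023), a call lost when control 2, control 3, cuprizone 1, cuprizone 2 or cuprizone 3 was left out (adjusted p up to 0.09) or under 2 other settings. In Notch, Wnt and hedgehog signalling 5 of 34 rose (14.7%) and 3 fell (8.82%). There were 2 higher without control 2 or cuprizone 3, and 3 without control 3 or cuprizone 1. Hhip, which binds hedgehog ligands, measured 5.81, 7.01 and 5.38 FPKM in controls and 1.25, 1.45 and 1.61 FPKM after cuprizone (log2 change -1.53 ± 0.16, adjusted p = 4.7e-05), and the Wnt inhibitor Nkd1 11.9, 13.4 and 10.6 FPKM in controls and 5.21, 7.18 and 5.598 FPKM after cuprizone (log2 change -0.89 ± 0.12, adjusted p = 1.8e-04).

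Stress responses rose in selected genes. In the integrated stress response, by which cells curb translation and induce genes of amino acid supply, 14 of 37 genes rose and 1 fell. Nupr1, a stress-induced chromatin protein, measured 4.23, 8.07 and 9.897 FPKM in the control libraries and 42.02, 70.5 and 46.6 FPKM in the cuprizone libraries (log2 change 2.71 ± 0.27, adjusted p = 2.5e-05). Eif4ebp1, a repressor of translation, measured 4.35, 3.63 and 4.14 FPKM in controls and 13.02, 14.4 and 10.6 FPKM after cuprizone (log2 change 1.43 ± 0.14, adjusted p = 2.2e-05), and Slc7a11, the cystine transporter, 6.13, 6.12 and 5.09 FPKM in controls and 22.96, 19.8 and 24.3 FPKM after cuprizone (log2 change 1.78 ± 0.22, adjusted p = 1.3e-04). Vldlr, a lipoprotein receptor, was the member that fell (-0.48, adjusted p = 0.044), a call lost when control 1, control 2, control 3, cuprizone 2, cuprizone 3, AHR CKO control 2 or AHR CKO cuprizone 2 was left out (adjusted p up to 0.14) or under 4 other settings. The factor Atf4 itself measured 88.7, 89.2 and 80.2 FPKM in controls and 89.99, 124 and 101 FPKM after cuprizone and was not called (adjusted p = 0.15). Of the 14 that rose, 9 were highest in cuprizone 2 and 10 lowest in cuprizone 1 among the treated libraries.

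The composite element that Atf4 binds with C/EBP proteins was searched as TGATGNAA on both strands. It was in 7 of the 29 promoters available for the list and in 3.527% of all promoters (1.895% of those of tested genes). Genes that hold it include Slc7a11, which rose, and Gars, Chac1 and Asns, which were not called. Windows are shown for 2 members that rose, Nupr1 (chr7:126625543-126625610, minus strand) and the transcription factor Atf3 (log2 change 2.39 ± 0.18, adjusted p = 4.8e-06; chr1:191183406-191183473, minus strand), which hold it on the opposite strand at position -110. Capitals mark the motif.
Nupr1: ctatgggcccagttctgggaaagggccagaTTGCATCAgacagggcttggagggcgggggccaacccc
Atf3: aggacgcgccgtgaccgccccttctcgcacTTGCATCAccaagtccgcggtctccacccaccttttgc

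Chaperones of the endoplasmic reticulum rose in 14 of 24 cases. Hspa5 (BiP), the main chaperone of this compartment, measured 116, 130.4 and 109 FPKM in the control libraries and 283, 229 and 241 FPKM in the cuprizone libraries (log2 change 1.07 ± 0.10, adjusted p = 1.6e-05). Sdf2l1, a partner of Hspa5, measured 11.5, 15.8 and 10.2 FPKM in controls and 51.5, 41.2 and 38.2 FPKM after cuprizone (log2 change 1.74 ± 0.18, adjusted p = 3.1e-05), and Manf, a secreted protein of stressed cells, 19.98, 22.4 and 21.03 FPKM in controls and 49.5, 40.9 and 40.7 FPKM after cuprizone (log2 change 1.01 ± 0.10, adjusted p = 3.1e-05). In the cytosol 8 of 24 heat shock genes rose and 1, Cryab, fell. Hspa1b, an inducible Hsp70 whose sequence is near identical to Hspa1a so that reads may be split between them, measured 1.95, 2.45 and 2.13 FPKM in controls and 14.2, 19.9 and 10.4 FPKM after cuprizone (log2 change 2.27 ± 0.21, adjusted p = 1.5e-05). Constitutive Hspa8 (0.32) and Hsp90ab1 (-0.00) were not called.

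Of 27 immediate early genes 12 rose and none fell. Junb, a part of the AP-1 factor, measured 35.6, 30.1 and 28.96 FPKM in the control libraries and 58.2, 60.97 and 89.7 FPKM in the cuprizone libraries (log2 change 1.095 ± 0.17, adjusted p = 5.5e-04), Maff, a small partner of such factors, 0.717, 0.665 and 0.538 FPKM in controls and 3.03, 4.15 and 2.42 FPKM after cuprizone (log2 change 1.34 ± 0.22, adjusted p = 8.8e-04) and the phosphatase Dusp6 20.4, 16.4 and 16.3 FPKM in controls and 31.5, 30.6 and 33.8 FPKM after cuprizone (log2 change 0.83 ± 0.14, adjusted p = 0.0012). Egr1 and Egr3, induced by neuronal activity, were not called, with log2 changes of 0.05 and 0.01. Cuprizone 3 was the highest treated library in 9 of the 12. Of 28 targets of p53 and genes of cell death 11 rose and 1 fell, with 6 higher without control 3 or cuprizone 1 and 7 without control 2. The lower gene was Bnip3, a mitochondrial death protein (-0.35, adjusted p = 0.019), whose call was lost when control 3 or cuprizone 1 was left out (adjusted p up to 0.085) or under 1 other setting. Cdkn1a (p21), which halts the cell cycle, measured 10.7, 10.9 and 8.85 FPKM in controls and 34.7, 60.2 and 41.6 FPKM after cuprizone (log2 change 2.03 ± 0.17, adjusted p = 1.1e-05), and Bcl2a1b, a survival protein of blood cells with close copies in the genome, 1.72, 2.96 and 1.41 FPKM in controls and 28.8, 22.6 and 26.7 FPKM after cuprizone (log2 change 3.18 ± 0.28, adjusted p = 1.2e-05).

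Of 24 genes of copper handling 4 rose (16.7%) and 2 fell (8.33%, near the share over all genes). The metallothioneins Mt1, Mt2 and Mt3, which bind copper and zinc, were 3 of the 4. Mt2 measured 220.1, 345 and 238 FPKM in the control libraries and 666, 565 and 479 FPKM in the cuprizone libraries (log2 change 1.104 ± 0.17, adjusted p = 6.0e-04), Mt1 609, 805 and 601 FPKM in controls and 1282, 1222 and 905 FPKM after cuprizone (log2 change 0.75 ± 0.17, adjusted p = 0.0079), and the groups did not overlap in either. With quality weights the log2 change of Mt1 was 0.49, and with a length and GC correction that of Mt3 was 0.42. App, the amyloid precursor protein, which binds copper, measured 812, 832 and 799 FPKM in controls and 507, 550.1 and 573 FPKM after cuprizone (log2 change -0.58 ± 0.10, adjusted p = 0.0011). The other lower gene, Sco1, an assembly factor of the respiratory chain, lost its call when control 1, control 2, control 3, cuprizone 1 or cuprizone 3 was left out (adjusted p up to 0.13) or under 2 other settings. The chaperones Atox1 (0.39) and Cox17 (-0.12) and the copper enzyme Sod1 (0.04) were not called. The core of the metal response element, TGCGCNC on both strands, was in 12.56% of all promoters and 22.79% of those of tested genes, and in 4 of 19 copper gene promoters (21.05%). The Mt2 window at chr8:94172460-94172526, plus strand, with the match at position -128 in capitals, is shown as the member that rose.
Mt2: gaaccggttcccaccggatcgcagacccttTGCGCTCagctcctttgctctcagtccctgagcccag

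Of 26 genes of iron and haem 6 rose (23.1%) and 3 fell (11.5%), with 1 lower without control 1, control 2 or cuprizone 1. Ftl1, the ferritin light chain, measured 524, 597 and 484 FPKM in the control libraries and 1004, 1031 and 919 FPKM in the cuprizone libraries (log2 change 0.88 ± 0.12, adjusted p = 2.3e-04) and was higher in every cuprizone library than in every control. Fth1, its partner in the ferritin shell, was among the lower genes by the call described above, which several settings did not keep. Hfe, which regulates iron uptake, measured 2.38, 2.99 and 2.86 FPKM in controls and 10.5, 7.62 and 7.49 FPKM after cuprizone (log2 change 1.34 ± 0.21, adjusted p = 8.0e-04), and the transferrin receptor Tfrc 34.1, 32.97 and 32.3 FPKM in controls and 21.3, 26.3 and 23.6 FPKM after cuprizone (log2 change -0.47 ± 0.09, adjusted p = 0.0032). Of 29 NRF2 and glutathione genes 5 rose (17.2%) and 4 fell (13.8%). Prdx6, a peroxidase of astrocytes, measured 139.5, 153 and 133 FPKM in controls and 247, 250.2 and 213 FPKM after cuprizone (log2 change 0.73 ± 0.10, adjusted p = 2.3e-04), Gstp1, a glutathione transferase with a near-identical neighbour, 253, 274 and 250.1 FPKM in controls and 143, 116 and 149 FPKM after cuprizone (log2 change -0.93 ± 0.12, adjusted p = 1.2e-04) and Gss, glutathione synthetase, 12.8, 15.4 and 10.5 FPKM in controls and 8.49, 6.97 and 7.47 FPKM after cuprizone (log2 change -0.67 ± 0.13, adjusted p = 0.0028).

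Of 11 genes tested of the aryl hydrocarbon receptor and its targets 4 rose and none fell. The 4 were Il4i1, Tiparp and the neighbours Ugt1a6a and Ugt1a7c. Another 5 in the table, Cyp1b1 and Ahrr among them, were under the level tested. Ugt1a7c, a conjugating enzyme that shares exons with its Ugt1a neighbours, measured 0.831, 0.853 and 0.718 FPKM in the control libraries and 4.71, 3.01 and 2.66 FPKM in the cuprizone libraries (log2 change 1.28 ± 0.24, adjusted p = 0.0029), and Il4i1, an enzyme that makes ligands of the receptor, 1.05, 0.9695 and 1.35 FPKM in controls and 3.76, 3.15 and 3.88 FPKM after cuprizone (log2 change 1.11 ± 0.16, adjusted p = 4.0e-04). The partners Arnt (0.03) and Arnt2 (-0.27) were not called. The receptor's motif TNGCGTG was in none of the 8 promoters available and in 4.156% of all promoters (6.881% of those of tested genes), which says only that these letters are absent from the windows. In the circadian clock 4 of 19 genes fell (21.1%) and 3 rose (15.8%). None was called higher without control 3 or cuprizone 3, and 1 without control 2 or cuprizone 2. Dbp, an output factor of the clock, measured 74.97, 66.2 and 91.5 FPKM in controls and 26.98, 45.4 and 40.9 FPKM after cuprizone (log2 change -1.04 ± 0.20, adjusted p = 0.003), and the repressor Nr1d1 61.3, 60.1 and 75.8 FPKM in controls and 27.3, 38.6 and 29.98 FPKM after cuprizone (log2 change -1.02 ± 0.13, adjusted p = 1.5e-04).

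None of 82 nuclear genes of the respiratory chain was called, and their median was 0.04. Glycolysis had 3 of 26 genes higher (11.5%), among them Hk2, an inducible hexokinase (1.18, 1.21 and 1.1997 FPKM in controls and 7.02, 3.76 and 4.12 FPKM after cuprizone, log2 change 1.40 ± 0.22, adjusted p = 7.1e-04), and Hk3, the hexokinase of myeloid cells (0.565, 0.853 and 0.5595 FPKM in controls and 3.203, 2.73 and 2.07 FPKM after cuprizone, log2 change 1.14 ± 0.17, adjusted p = 5.0e-04). Of 37 proteasome subunits the 2 that rose were the inducible Psmb8 and Psmb9. Of 84 ribosomal protein genes 25 rose and none fell, and in 50 all cuprizone libraries exceeded all controls (59.5%, against 15.8% over all genes). Rpl10a measured 181, 206 and 192 FPKM in the control libraries and 288, 292 and 289 FPKM in the cuprizone libraries (log2 change 0.58 ± 0.09, adjusted p = 7.4e-04), and Rplp0 297, 332 and 261 FPKM in controls and 431, 452 and 437 FPKM after cuprizone (log2 change 0.57 ± 0.10, adjusted p = 0.0018). The count of 25 became 10 without control 1, 10 without cuprizone 2, 14 without cuprizone 3, 16 without cuprizone 1 and 8 without control 3, which was the lowest control in 19 of the 25 and has the highest striatal sum, and reads of these genes may be shared with processed copies. Of 33 cell cycle genes 3 rose (9.09%, near the share over all genes), Ccnd1, Ccnd3 and the inhibitor Cdkn1a given above. The call of Ccnd3 was lost when control 1, control 3 or cuprizone 1 was left out (adjusted p up to 0.099) or under 1 other setting. The 1 gene that fell was Mcm5 (-0.37, adjusted p = 0.049), a call lost when control 2, control 3, cuprizone 1, cuprizone 2, cuprizone 3, AHR CKO control 1, AHR CKO control 2, AHR CKO control 3 or AHR CKO cuprizone 2 was left out (adjusted p up to 0.15) or under 6 other settings. Ccnd1, cyclin D1, measured 15.4, 15.6 and 13.003 FPKM in controls and 24.5, 27.8 and 24.6 FPKM after cuprizone (log2 change 0.77 ± 0.09, adjusted p = 9.2e-05), and the replication clamp Pcna 60.6, 68.99 and 54.1 FPKM in controls and 55.95, 59.5 and 56.5 FPKM after cuprizone (not called).

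**Figure D4:**
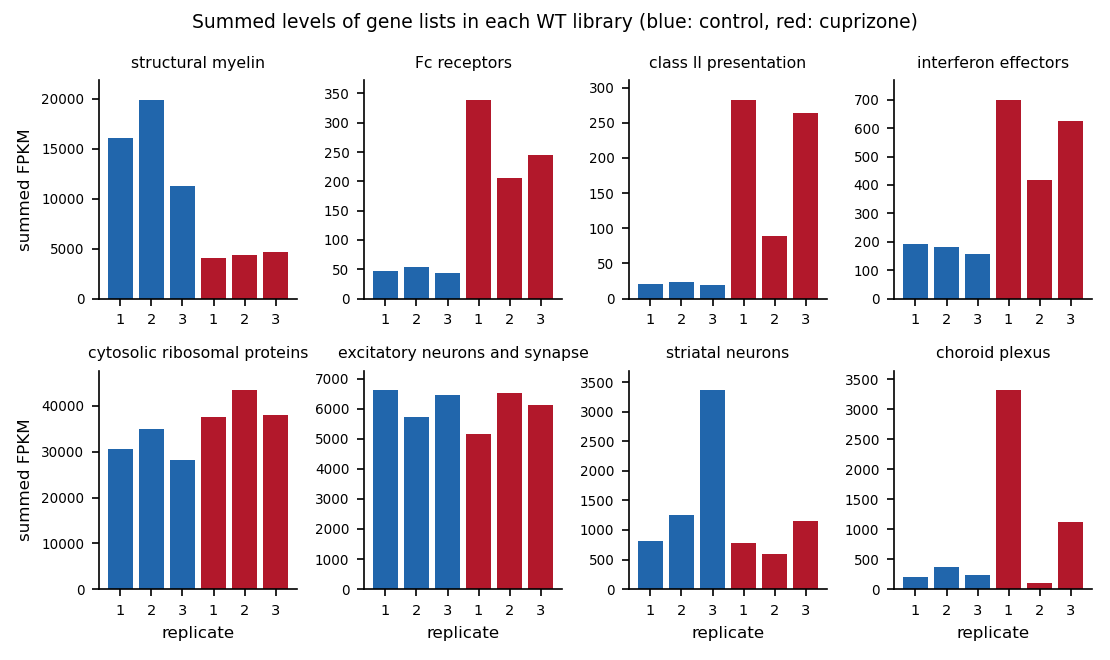
Summed FPKM of all members of 8 gene lists in the table, tested or not, in each of the 6 WT libraries, 1 panel per list. The structural myelin sum lies at 11243 to 19902 FPKM in controls and at 4025 to 4683 FPKM after cuprizone. The striatal sum is highest in control 3 and the choroid plexus sum in cuprizone 1.

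Among neuronal genes, none of 30 of excitatory neurons and synapses and none of 17 of inhibitory interneurons was called. Nrgn, a calmodulin-binding protein of excitatory neurons, measured 1106, 928 and 1338 FPKM in the control libraries and 768, 1275 and 993 FPKM in the cuprizone libraries, and Sst, the peptide of an interneuron class, 771, 604 and 636 FPKM in controls and 418, 909 and 597 FPKM after cuprizone. In both the groups overlapped, so transcripts of neurons were present in all of these white matter libraries. Pcp4, a calmodulin regulator of neurons, fell from 1551, 1822 and 2964 to 853, 1276 and 1202 FPKM (-0.89, adjusted p = 0.043), but it was highest in control 3 and lost its call when control 2, control 3, cuprizone 1, cuprizone 3, AHR CKO control 1, AHR CKO control 2, AHR CKO control 3 or AHR CKO cuprizone 2 was left out (adjusted p up to 0.17) or under 4 other settings. With quality weights its log2 change was -0.58. Of 69 potassium channel genes 4 rose and 5 fell (5.8% and 7.25%, both below the shares over all genes). The higher genes were 2 without cuprizone 1 or cuprizone 3 and 7 without cuprizone 2, and the lower ones 2 and 10 without cuprizone 1 and cuprizone 2. Kcna6, another channel of the axon, measured 38.3, 42.02 and 27.1 FPKM in controls and 13.6, 22.6 and 18.6 FPKM after cuprizone (log2 change -0.94 ± 0.17, adjusted p = 0.0024), and Kcnk6, a background channel, 1.804, 1.24 and 1.47 FPKM in controls and 5.36, 2.69 and 4.49 FPKM after cuprizone (log2 change 1.02 ± 0.21, adjusted p = 0.0043).

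Of 25 endothelial genes 2 rose (8%, near the share over all genes). Icam1, an adhesion molecule for leukocytes that other cell types also make, measured 1.29, 1.27 and 1.41 FPKM in the control libraries and 6.88, 3.56 and 4.91 FPKM in the cuprizone libraries (log2 change 1.36 ± 0.20, adjusted p = 4.9e-04). The other, the lipid transporter Mfsd2a (0.30, adjusted p = 0.035), lost its call when control 2, control 3, cuprizone 1, cuprizone 2, AHR CKO control 2 or AHR CKO cuprizone 2 was left out (adjusted p up to 0.15) or under 4 other settings. The glucose transporter Slc2a1 (-0.20) and the vessel marker Ly6c1 (0.02) were not called. Of 31 fibroblast and collagen genes 4 rose (12.9%) and 1 fell, with 2 higher without control 3 or cuprizone 1. The lower gene, Col11a2, lost its call when control 1, control 2, cuprizone 2 or cuprizone 3 was left out (adjusted p up to 0.081) or under 2 other settings. Col5a3 measured 0.606, 0.505 and 0.292 FPKM in controls and 1.796, 4.95 and 2.15 FPKM after cuprizone (log2 change 1.36 ± 0.29, adjusted p = 0.0057) and was highest in cuprizone 2. Among the amino acid carriers 7 of 38 rose (18.4%) and 2 fell (5.26%, below the share over all genes). Slc6a9, a glycine transporter of glia, measured 38.2, 46.5 and 31.7 FPKM in controls and 15.6, 14.1 and 14.6 FPKM after cuprizone (log2 change -1.32 ± 0.15, adjusted p = 8.4e-05), whereas the creatine carrier Slc6a8, the other lower gene, lost its call when control 1, control 2, cuprizone 1 or cuprizone 3 was left out (adjusted p up to 0.11) or under 1 other setting. Slc7a7, a carrier of basic amino acids in macrophages, measured 1.45, 1.69 and 1.17 FPKM in controls and 6.7005, 5.71 and 7.55 FPKM after cuprizone (log2 change 1.65 ± 0.20, adjusted p = 1.1e-04).

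Several called genes lay next to each other in the genome (GENCODE M21, GRCm38, tested genes in order). The longest run was of 10 neighbours that rose at chr17:34119541-34316674, from H2-DMa and H2-DMb1 through Psmb9, Tap1, Psmb8, Tap2 and H2-Ob to H2-Ab1, H2-Aa and H2-Eb1. Its genes of the class I pathway, Psmb9 to Tap2, lie together between genes of class II. A run of 5 Trim genes, which encode ubiquitin ligases of antiviral defence, rose at chr7:104244457-104507849 (Trim34a 1.14, Trim12a 1.04, Trim12c 0.89, Trim30a 1.73 and Trim30d 1.45, log2 changes). Runs of 4 that rose held Ccl5, Ccl9, Ccl6 and Ccl3 (chr11:83525778-83649355), AW112010 with Ms4a6c, Ms4a6b and Ms4a6d (chr19:11047612-11604849) and Gbp5, Gbp7, Gbp3 and Gbp2 (chr3:142493978-142638008). The Trim, Ccl, Ms4a and Gbp genes are families of similar copies, and the H2 genes of the longest run are related to each other. Reads may therefore be shared within a family. The longest run and that with AW112010 also hold genes outside these families. The calls of Ms4a6b (0.60), Gbp5 (0.93) and Gbp7 (0.52) did not hold throughout, so the Ms4a and Gbp runs of 4 depend on single libraries. That of Ms4a6b was lost when control 2, control 3, cuprizone 1, cuprizone 3, AHR CKO control 2, AHR CKO cuprizone 2 or AHR CKO cuprizone 3 was left out (adjusted p up to 0.15) or under 4 other settings. That of Gbp5 was lost when control 2, control 3, cuprizone 1 or cuprizone 3 was left out (adjusted p up to 0.11) or under 1 other setting, and that of Gbp7 when control 1, control 2, control 3, cuprizone 1 or cuprizone 3 was left out (adjusted p up to 0.1). The chr17 run ends with H2-Eb1, whose losses are given above.

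Among lower genes the longest run had 5 members at chr17:49456022-50688484, Daam2, Kif6, Rftn1, Dazl and Plcl2, which are not copies of each other. Rftn1, a protein of membrane rafts, was the strongest of them, at 12.1, 14.9 and 8.2002 FPKM in the control libraries and 5.91, 4.21 and 4.78 FPKM in the cuprizone libraries (log2 change -1.07 ± 0.18, adjusted p = 0.0012), while the calls of Daam2, Kif6, Dazl and Plcl2 had adjusted p values of 0.047, 0.04, 0.037 and 0.046. The call of Dazl was lost when control 3, cuprizone 1, cuprizone 3 or AHR CKO control 2 was left out (adjusted p up to 0.13) or under 3 other settings. That of Kif6 was lost when control 1, control 2, control 3, cuprizone 2, cuprizone 3, AHR CKO control 2 or AHR CKO cuprizone 2 was left out (adjusted p up to 0.14) or under 2 other settings. That of Daam2 was lost when control 1, control 2, cuprizone 1, cuprizone 2, cuprizone 3, AHR CKO control 1, AHR CKO control 2, AHR CKO control 3 or AHR CKO cuprizone 2 was left out (adjusted p up to 0.17) or under 7 other settings, and that of Plcl2 when control 1, control 2, control 3, cuprizone 1, cuprizone 3, AHR CKO control 1, AHR CKO control 2, AHR CKO control 3 or AHR CKO cuprizone 3 was left out (adjusted p up to 0.18) or under 8 other settings. In all there were 5 runs of at least 4 higher genes, with 27 genes, and 2 of lower genes, with 9. At an adjusted p of 0.01, 3 runs of higher genes (18 genes) and none of lower genes were left.

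The order of the treated libraries differed between these groups of genes. Of the 1230 genes that rose, cuprizone 1 was the highest treated library in 864 and cuprizone 2 the lowest in 750. In all 21 lysosomal and all 12 complement genes that rose, cuprizone 1 was highest, and its choroid plexus sum was the highest of the 6 libraries. Of the 1071 that fell, control 2 was the highest control in 642 and control 3 the lowest in 696. Control 3 also had the highest striatal sum. Whether the library order has a part in these changes was not tested.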

How the data were processed

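Per the labels' protocols, a Qiagen RNeasy kit gave total RNA of mouse corpus callosum and the SMARTER mRNA-Seq kit the libraries. Values are FPKM, which the authors deposited as a table of 12 columns by gene symbol, per the file headers. The genome was GRCm38 (mm10), per the submitters' processing notes. Not given in the sources used here: aligner, quantifier, annotation. FPKM scales out length and library size and hides the number of reads, so no count test was run and the depth behind low values is not shown.

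Libraries were grouped by the genotype and treatment of the labels. Genes with at least 1 FPKM in at least 3 of the 6 WT libraries were tested. A linear model of log2(FPKM + 1) with a term for each of the 4 groups was fitted in limma 3.58.1 (R 4.3.3) over the 12 libraries, with a trend in the prior variance, and p-values for WT cuprizone minus WT control were adjusted over all 13363 genes by Benjamini-Hochberg. The pseudocount of 1 makes log2 changes of low genes smaller than ratios of FPKM. An exact permutation test of 3 against 3 libraries cannot go below p = 0.1 and was not used. The procedure was tested on simulated data. Tables and plots were made with Python 3.11.15, pandas 2.3.3, numpy 2.4.6 and matplotlib 3.10.9.

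The gene lists, the comparison and the motifs were chosen with earlier results of these data known, so list counts are descriptions. Genes were named by a rule: Ahr and Cx3cr1, the 20 largest rises and falls without overlap between groups, the 10 largest rises and falls in FPKM, in each list up to 4 members of lowest adjusted p, 2 of the opposite direction and 3 of highest level not called, the members of the 6 longest runs, and 2 called members per motif. Gapdh falls outside the rule and was chosen after its values were seen. Summed levels of a list cover all its members in the table, tested or not. Another 25 symbols read as dates, as spreadsheets write them, and are not named, and a few single genes are left out of the text. Promoters came from RefSeq (GRCm38.p6), with a window for 79.39% of tested genes, and positions from GENCODE M21. Alternatives covered the pseudocount, the filter, scaling, library weights, the variance trend, a length and GC correction, the replicate number, the groups fitted and each library left out.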

Additional observations from a re-analysis of the deposited data

How the results depend on the processing

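The counts of 1230 higher and 1071 lower genes stayed within 1.5 times under most settings. Exceptions for higher genes were 765 with a mean of at least 5 FPKM (9984 genes tested), 2254 with sample quality weights and 458 with a 2-fold minimum. For lower genes they were 2739 with weights and 222 with the 2-fold minimum. The cause of the shift with weights was not tested, and the share of calls that were higher was 53.46% in the reported fit, 45.14% with weights and 45.45% with the stricter filter. On leaving out each library in turn, higher genes ranged from 869 to 1297 and lower genes from 730 to 1127. The labels do not state whether the replicate numbers pair the samples. Deviations from the group mean correlated at -0.228, 0.0812 and 0.249 for same-numbered libraries and at -0.311 to 0.342 for the others. With 3 libraries per group such deviations depend on each other and cannot decide it. A replicate block gave 1074 higher and 862 lower genes. Only the WT groups gave 1079 and 800. Of the 290 called genes under the naming rule, 246 kept the call with any 1 of the 12 libraries left out, and 45 lost it under at least 1 of the 24 settings. A mean of at least 5 FPKM left 68 of the 290 untested, and of the 222 tested under all settings 190 kept the call throughout. None of the 460 genes reversed where it was tested. With a mean of at least 5 FPKM fewer immune genes could be tested: interferon effectors called higher went from 31 to 10, toll-like receptor genes from 21 to 6 and immune signalling genes from 28 to 16. Ribosomal protein genes called higher ranged from 8 without WT control 3 to 47 with weights, and were 15 with the replicate block. Low genes are limited by the unstated read depth. With that filter the Ms4a and border macrophage lists held no tested gene and have no value.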
